A study of Homo sapiens with 2 samples.

Results

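A set of 6 of the 84 genes on an adipogenesis PCR array encodes hormones and factors that fat or liver release into the blood, and they were taken by name: Adipoq (adiponectin), Cfd (complement factor D, or adipsin), Lep (leptin), Retn (resistin), Agt (angiotensinogen) and Angpt2 (angiopoietin 2). They were measured by quantitative PCR in HepG2, an established human hepatoma line. The control group was 1 sample of untreated cells. The MOES group was 1 sample kept for 72 h with an aqueous extract of Moringa oleifera seeds, at 5 mg/mL according to the sample title and at 2.5 mg/mL according to the array protocol. The question was whether the extract, a source of plant miRNAs, alters transcripts of lipid metabolism in liver cells.

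Each group held 1 sample, so no difference below has a replicate check, an error between cultures or a p-value. The values are threshold cycles (Ct), where a lower Ct means more template and 1 cycle stands for a doubling. A Ct of 35 was the highest value recorded and was read as a ceiling. The delta Ct sets each Ct against the average of B2m, Gusb and Hsp90ab1, the reference genes that the deposited delta Ct values imply. Fold changes are levels in the MOES sample over those in the control, and the study's limits of 1.5 and 0.5 mark a gene as higher or lower. The only spread that the plate offers is that of 3 reverse transcription control (RTC) wells of the control sample, from which the difference of any 2 wells has an SD of 0.530 cycles. It stems from late wells of 1 plate and holds no variation between cultures. In a pool of cells, fewer cells with a transcript and less transcript per cell cannot be told apart.

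The wells carry limits that touch all 6 genes. The positive PCR control (PPC) stood at 35 in each of its 3 wells in both samples, so there is no working PCR control for early or late wells. The RTC wells came at 31.41, 32.01 and 32.1 cycles in control cells and at 35 with MOES. Of the reference genes left out of the mean, Actb was at 34.05 in the control and Gapdh at 28.46, and both were at 35 in the MOES sample. All 84 genes of the array, these 6 among them, had whole-number Ct values in the MOES sample, while B2m (23.82), Gusb (25.66) and Hsp90ab1 (25.3) had not, so the range for a shift of 1 cycle either way is given beside the fold changes. The labels name the human array, whereas the symbols are spelled as in mouse, MGDC is the maker's name for the mouse genomic DNA control, and 15 of the 62 genes in the annotated table carry RIKEN clone names, which belong to mouse genes. The human arrays of this maker hold other reference genes in some of these wells. Whether each well held the gene that the tables name was not tested.

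Adipokines are proteins that adipocytes secrete. Adiponectin raises insulin sensitivity in liver and muscle and is made almost only by adipocytes. Leptin reports the size of the fat store to the brain, and its gene is also active in placenta and stomach. Adipsin, a serine protease of the alternative complement pathway, is abundant in fat and is made by macrophages as well. Resistin comes from adipocytes in mice but mainly from monocytes and macrophages in humans. Angiotensinogen, the precursor of the angiotensin peptides that raise blood pressure, is chiefly a liver protein, with fat as a further source. Angiopoietin 2 is a ligand of the receptor TIE2 and is made mostly by endothelial cells, where it loosens the vessel wall.

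The human genes behind the results are placed here in the assembly GRCh38.p14, from RefSeq. LEP lies on chromosome 7 from 128241278 to 128257629, ADIPOQ on chromosome 3 from 186842710 to 186858463, and AGT on chromosome 1 from 230702523 to 230745583. CFD and RETN share chromosome 19, at 859664 to 863641 and at 7669049 to 7670455. RefSeq promoter windows of 300 bases, 250 before a gene's start and 50 after it, were matched for 5 of the 6 genes, at the start that RefSeq uses for the window. The windows of LEP, ADIPOQ and AGT are shown because these genes had the highest fold change of the 6, the lowest, and liver as the usual tissue. They are, in order, chr7:128241028-128241327 on the plus strand, chr3:186842460-186842759 on the plus strand and chr1:230714073-230714372 on the minus strand. That of AGT lies inside the span given for the gene. Capitals mark the C/EBP palindrome TTGCGCAA in LEP, CCAAT in ADIPOQ and TATAAA in AGT.
LEP: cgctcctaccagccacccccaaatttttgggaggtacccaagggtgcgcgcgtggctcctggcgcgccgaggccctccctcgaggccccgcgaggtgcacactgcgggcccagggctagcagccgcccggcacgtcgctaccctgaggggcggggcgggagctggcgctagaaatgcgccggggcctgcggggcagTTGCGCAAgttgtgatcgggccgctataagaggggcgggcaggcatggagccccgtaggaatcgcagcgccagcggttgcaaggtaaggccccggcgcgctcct
ADIPOQ: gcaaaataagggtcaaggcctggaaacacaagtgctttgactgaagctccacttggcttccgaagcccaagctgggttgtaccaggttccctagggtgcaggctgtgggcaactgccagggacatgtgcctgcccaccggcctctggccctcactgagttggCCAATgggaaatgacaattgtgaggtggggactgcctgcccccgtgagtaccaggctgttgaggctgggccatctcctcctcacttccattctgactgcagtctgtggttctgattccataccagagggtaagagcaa
AGT: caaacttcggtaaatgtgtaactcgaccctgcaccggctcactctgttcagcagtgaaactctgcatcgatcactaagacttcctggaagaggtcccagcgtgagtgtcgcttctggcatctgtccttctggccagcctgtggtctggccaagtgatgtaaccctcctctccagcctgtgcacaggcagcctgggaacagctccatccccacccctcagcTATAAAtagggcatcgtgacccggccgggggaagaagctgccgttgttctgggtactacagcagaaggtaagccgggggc

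C/EBP factors bind TTGCGCAA, and this palindrome began 54 bases before the start of LEP. It was found in 53 of 35116 promoter windows of this length (0.151%), on either strand. Its looser form TTGCNNAA, which contains the palindrome, was held by 10.5% of windows and, among the 5 genes, by LEP alone. ADIPOQ held CCAAT, as did 34.6% of windows. AGT held TATAAA 30 bases before its start, as did 11.5% of windows. The GC box GGGCGG was found in CFD and LEP and in 45.0% of windows. CACGTG (7.26% of windows) and the PPAR direct repeat, AGGTCA repeated after 1 free base (0.0228% of windows), were found in none of the 5. RETN held none of the 7 motifs. A match describes the letters in the window and says nothing of binding in these cells.

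The untreated cells split the 6 genes into an early and a late set. Cfd, Adipoq and Retn came early, and Angpt2, Lep and Agt came late. Cfd had a Ct of 26.24, which was 40.0% of the level of the reference genes. Adipoq had a Ct of 27.37 and a level of 18.3% of the reference. Retn followed at 27.61 and 15.5%. The late set began 5.42 cycles later, with Angpt2 at 33.03 and 0.361% of the reference. Lep stood at 33.89 and 0.199%, and Agt at 33.91 and 0.196%. A comparison of levels between genes assumes that their assays amplify equally well. Adipoq and Retn lay 0.24 cycles apart and Lep and Agt 0.02 cycles apart, less than the SD between single wells, so neither pair can be ordered. The other neighbours were further apart than that SD.

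Set beside the usual tissues, this order placed 3 products of fat and macrophages ahead of the liver's own. That reading takes each well to hold the gene named for it, which was not tested. Agt, chiefly a hepatocyte transcript, had the latest Ct of the 6 in these hepatoma cells, and 75 of the 84 genes were earlier. Adipoq, which marks adipocytes, ranked 13 in the order of the 84 genes and was 6.54 cycles earlier than Agt, a 93.1-fold difference in template. Cfd ranked 11 and Retn 14. In that order Cfd stood between Insr (25.62) and Lrp5 (27.33), and Lep between Slc2a4 (33.42) and Agt. The array carried 0 of 5 defining hepatocyte markers (Alb, Ttr, Apoa1, Afp and Serpina1), so the identity of the line as liver cells could not be checked here. All 7 adipocyte markers outside the 6 genes (Fabp4, Adig, Lipe, Lpl, Slc2a4, Pparg and Cebpa) had a Ct under 35 in the control, from 19.82 for Pparg to 33.42 for Slc2a4. Of all 84 genes only 6 were at 35 in the control, so this is no result about these markers. The MGDC well came at 29.9 cycles in control cells, so Angpt2, Lep and Agt were later than the well that reports genomic DNA. With MOES it came at 29.56, and 4 of the 6 genes, Adipoq now among them, were later. Over all 84 genes, 48 were later than the MGDC well in control cells and 69 with MOES, so these counts are not particular to the 6 genes. The part of genomic DNA in these wells was not tested.

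**Figure D1:**
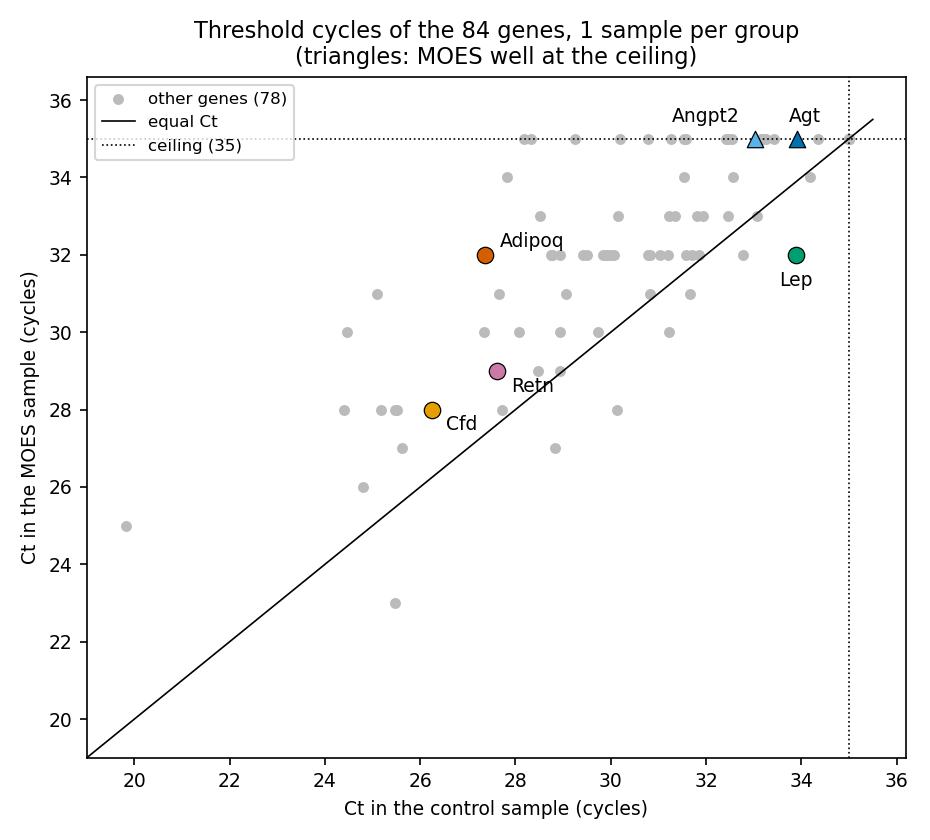
Ct of each gene in the control sample (horizontal axis, cycles) and in the MOES sample (vertical axis, cycles), with 1 sample per group, the 6 genes in colour and the other 78 genes in grey. Lep is the 1 coloured point below the line of equal Ct, and Agt and Angpt2 (triangles) lie on the ceiling of 35 in the MOES sample.

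With the extract, 5 of the 6 genes were below the limit of 0.5 and 1, Lep, was above 1.5. Over all 84 genes, 67.9% were below 0.5 and 8.33% above 1.5, so 5 and 1 of 6 are no result about these genes as a set. The median log2 fold change of the 6 genes was -1.57, against -1.77 for the 84 genes. Each of the 6 differed between samples by more than 2 of the SDs from the RTC wells (1.06 cycles), Agt by little, with a log2 fold change of -1.08. By that measure 65.5% of the 84 genes were below and 5.95% above. The measure does not cover shifts between the samples or the whole-number values of the MOES sample. With the MOES gene wells lowered by 0.5 cycle, Retn (-0.88) and Agt (-0.58) fell short of it, and the others did not. The RTC wells themselves had log2 values of -3.58, -2.98 and -2.89, at the ceiling with MOES. As recorded, these shifts were larger than those of all 6 genes but Adipoq. The counts of genes above and below rest on B2m, Gusb and Hsp90ab1 as reference. With the mean of all 5 reference genes and values of 35 taken as they stand, 1 of the 6, Adipoq, was below 0.5, and with Gapdh alone none was.

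Lep was the gene that went against the others. Its Ct was 33.89 in control cells and 32 with MOES, so the treated well was the earlier. The level went from 0.199% to 0.743% of the reference, a fold change of 3.73, or from 1.87 to 7.46 with the MOES value moved by 1 cycle either way. Of the 84 genes, 2 had a higher fold change. Relative to the median change of the array Lep was 12.8-fold higher. It stayed above a fold change of 1 under all 7 other references. These add from -0.01 to 6.53 to the log2 value of every gene, so none could have turned its direction. With Ct above 32 set to 32 both of its wells stand at 32, so that setting gives it no direction. In the MOES sample 21 genes, Lep and Adipoq among them, had a Ct of exactly 32.

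Adipoq had the lowest recorded fold change of the 6, although Agt and Angpt2, known only as bounds, could lie lower. Its Ct was 27.37 in control cells and 32 with MOES, and its level went from 18.3% to 0.743% of the reference. This was 24.6-fold lower, a fold change of 0.0407, or from 0.0203 to 0.0813 with 1 cycle either way. Of the 84 genes, 8 had a lower recorded fold change, 4 of them with both wells under 35. Relative to the median change of the array Adipoq was 7.19-fold lower. Of the 5 lower genes it was the 1 still recorded below 0.5 with the mean of all 5 reference genes (log2 fold change -3.13) and with the array's median Ct as reference (-3.12). Only Gapdh alone, of the references tried, put it above 0 (1.91).

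Cfd and Retn, the other members of the early set, moved less and close to the array as a whole. Cfd came at 26.24 cycles in control cells and at 28 with MOES, which was 3.36-fold lower. Retn came at 27.61 and 29, which was 2.60-fold lower. Relative to the median change of the 84 genes, Cfd was at a log2 difference of 0.03 and Retn at 0.40, both smaller than the SD between single wells. With the MOES value 1 cycle earlier, the fold change of Cfd was 0.595 and that of Retn 0.768, and both then lay between the limits. Retn had a log2 fold change of 0.11 with the mean of all 5 reference genes, and Cfd one of -0.26.

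Agt and Angpt2, the pair that act on blood vessels, reached the ceiling. Agt came at 33.91 cycles in control cells and at 35 with MOES, which put it at least 2.11-fold lower if 35 is exact. With the MOES value 1 cycle earlier its fold change was 0.946, between the limits. Angpt2 came at 33.03 and 35, at least 3.89-fold lower if 35 is exact. With 1 cycle less its fold change was 0.514, just above the lower limit. Both control wells were within 2 cycles of the ceiling, so larger changes could not have been measured, and the bounds hold only if the PCR worked in these wells. In the MOES sample 25 of the 84 genes were at 35, so these 2 share their value with 23 others. Against the mean of all 5 reference genes, the log2 value was 0.41 for Agt and -0.47 for Angpt2, and as Actb and Gapdh were at 35 too, neither then has a known direction.

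**Figure D2:**
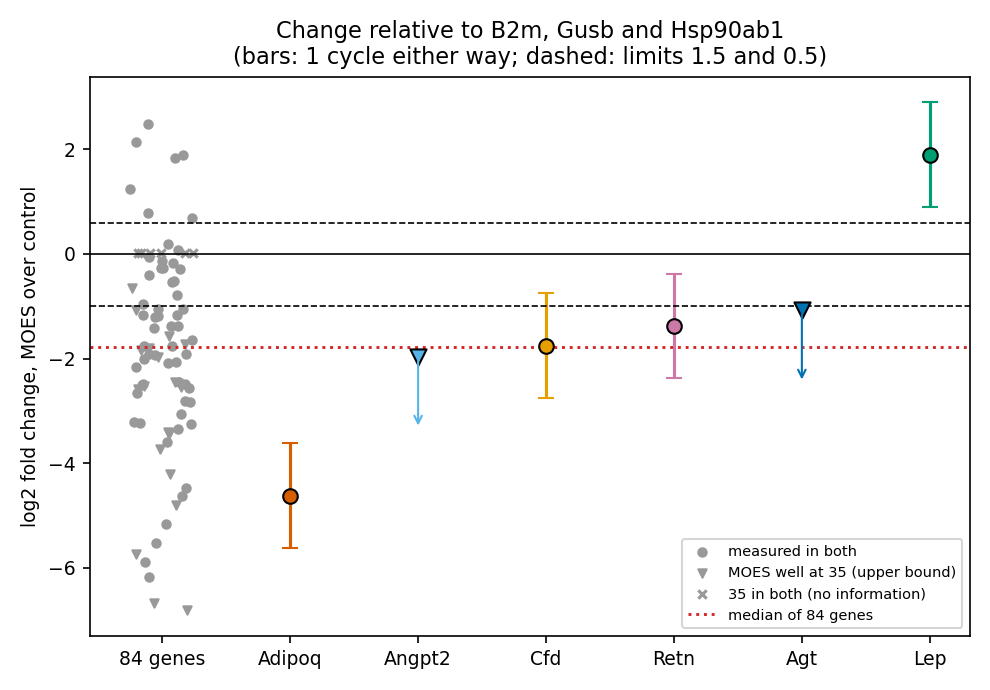
log2 fold change of MOES over control, relative to B2m, Gusb and Hsp90ab1, for all 84 genes (grey, left) and the 6 genes (colour), where bars span 1 cycle either way for the whole-number MOES values and arrows mark upper bounds with the MOES well at 35. Adipoq (-4.62) lies below the median of the array (-1.77, dotted), Cfd, Retn, Angpt2 and Agt lie from -1.96 to -1.08, and Lep (1.90) lies above the line for a fold change of 1.5.

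Differences between the 6 genes do not depend on the reference, since any reference adds the same amount to each. Of the 15 pairs, 6 had a Ct under 35 in all 4 wells, and a change in their ratio rests on all 4, which puts its SD from the RTC wells at 0.75 cycles. In 5 of these 6 pairs the ratio changed by more than 2 of these SDs (1.5 cycles). Each of the 5 holds Adipoq or Lep, so they are not independent. The pair without either, Cfd and Retn, changed by 0.37 cycles. The largest change among the 6 pairs was that of leptin to adiponectin, a ratio known from blood as a measure of the state of fat tissue. It follows from these genes having the highest and the lowest recorded fold change. Adipoq was 6.52 cycles ahead of Lep in the control, a 91.8-fold difference, and the 2 stood at the same Ct in the MOES sample. The ratio of Lep to Adipoq was therefore 91.8-fold higher with the extract, or 45.9-fold to 184-fold higher if the 2 MOES wells were off by 0.5 cycle in opposite directions. A shift of 1 cycle in each well, as used for the single genes, would widen that range. With Ct above 32 set to 32 the ratio was 24.8-fold higher.

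The early set drew apart. Retn and Adipoq, which could not be ordered in the control, lay 3 cycles apart in the MOES sample, with Retn ahead, and their ratio changed 9.45-fold. Cfd was 1.13 cycles ahead of Adipoq in control cells and 4 with MOES, a 7.31-fold change in their ratio. Cfd was ahead of Retn by 1.37 cycles in control cells and by 1 with MOES, and this change of 0.37 was smaller than the SD of 0.75 for a change in ratio. Lep moved against the other late genes as well. Angpt2 was 0.86 cycles ahead of Lep in the control and at least 3 behind it in the MOES sample, a change in ratio of 14.5-fold as recorded and of at least 7.26-fold if the 2 MOES wells were off by 0.5 cycle in opposite directions. For Agt, level with Lep in the control, it was 7.89-fold as recorded and at least 3.94-fold on the same terms. With Ct above 32 set to 32 both ratios were 1 in either sample, as all 3 genes were at that Ct or later.

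**Figure D3:**
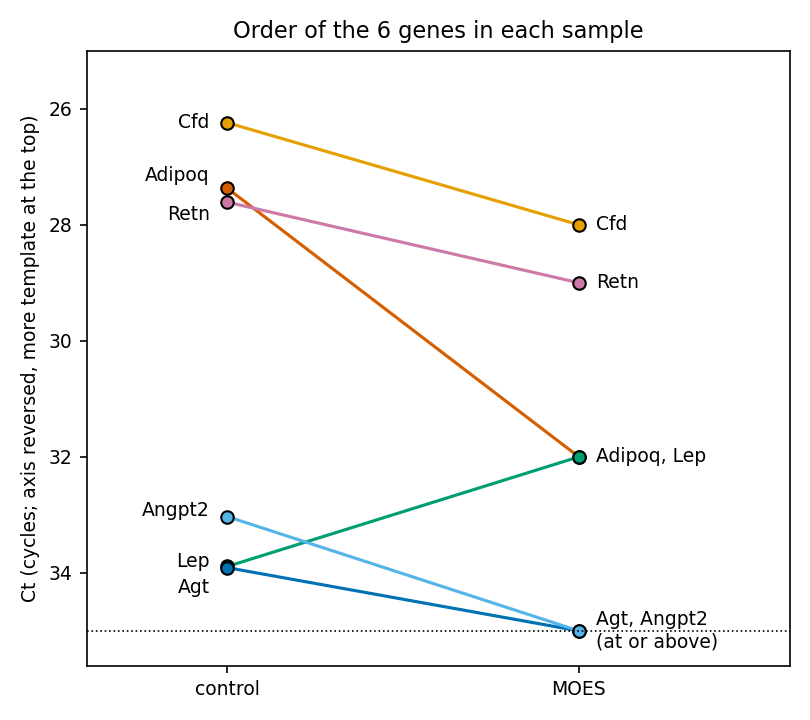
Ct (vertical axis, cycles, reversed so that more template is at the top) of the 6 genes in the control and the MOES samples, with 1 sample per group and the ceiling of 35 dotted. The line of Adipoq drops from 27.37 to 32 and meets that of Lep, which goes from 33.89 to 32, while those of Cfd and Retn run side by side.

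The choice of reference moved all 6 genes by the same amount on the log2 scale. B2m, Gusb or Hsp90ab1 alone moved them by at most 0.01. Actb alone added 0.94, the average of all 5 reference genes 1.49, the array's median Ct 1.5 and Gapdh 6.53. With Actb alone, Adipoq was below 0.5, and so was Angpt2 as recorded, although it stood at 35 like Actb itself. As the amount is the same for every gene, the recorded value was lowest for Adipoq and highest for Lep under each reference. The amounts for settings with Actb or Gapdh are minimums, because these wells were at 35 in the MOES sample.

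**Figure D4:**
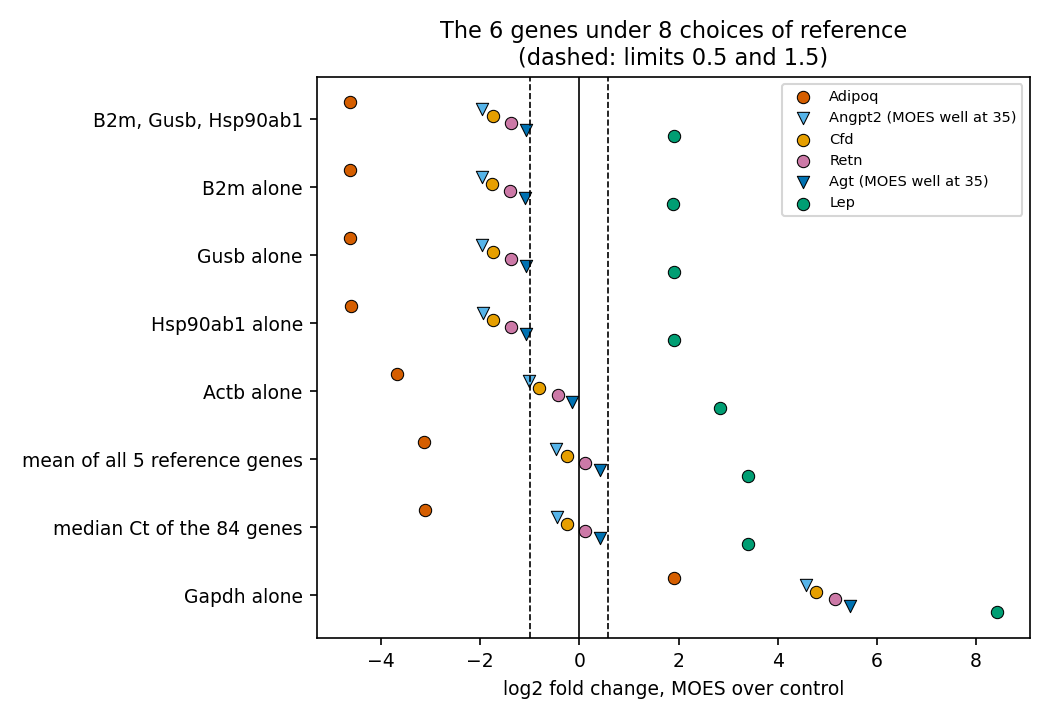
log2 fold change of MOES over control (horizontal axis) for the 6 genes under 8 choices of reference (rows), with triangles for the genes at 35 in the MOES sample, whose values are upper bounds with the first 4 references and the median, and have no known direction where Actb or Gapdh enters. The 6 values shift together, and Lep lies above 0 in every row while Adipoq does so with Gapdh alone.

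The genes nearest to each of the 6 were named by the distance between their Ct values in the 2 samples, which is a likeness over 2 samples only. Nearest to Lep were Ppard (1.11 cycles away) and Runx1t1 (1.30), a fatty acid receptor and a transcriptional repressor. Nearest to Adipoq were Irs2 (1.04), an adaptor of the insulin receptor, and Cebpb (1.37). Cfd had Mapk14 (0.73) and Rb1 (0.76) beside it, and Retn had Klf4 (0.86). Agt stood by Fgf10 (0.43) and Slc2a4 (0.49), and Angpt2 by Sirt1 (0.12) and Nrf1 (0.17), which were all at 35 in the MOES sample.

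Factors known to act on these genes lay on both sides of the limits. Of 9 transcription factors on the array with known roles at the 6 genes, 2 were above 1.5, 6 below 0.5 and 1 between, with a median log2 fold change of -2.16, against 8.33% above and 67.9% below over the 84 genes. The higher ones were Cebpd, a C/EBP factor, from a Ct of 25.47 to 23 (fold change 5.58), and Creb1, the factor that answers to cyclic AMP, from 28.82 to 27 (3.56). Pparg, the master regulator of fat cells and an activator of the adiponectin gene, went from 19.82 to 25 and was 36.0-fold lower. Its partner Rxra was 12.0-fold lower and Cebpb 9.51-fold lower. Cebpa, the C/EBP factor of mature fat cells and of hepatocytes, lay between the limits at a fold change of 0.578.

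Genes downstream of adiponectin, leptin and insulin leaned the same way as the array. Of 8 such genes, 7 (87.5%) were below 0.5 and 1 above 1.5, with a median of -1.88. Over the 84 genes, 67.9% were below and 8.33% above, with a median of -1.77. The higher gene was Acacb, the mitochondrial acetyl-CoA carboxylase that adiponectin signalling restrains through AMPK, with a fold change of 4.41. The lowest were Ppargc1a (45.9-fold lower), Ppara (22.3-fold lower) and Irs2 (10.1-fold lower), which serve mitochondrial biogenesis, fatty acid oxidation and insulin signalling.

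Of the 7 adipocyte markers, 6 (85.7%) were below 0.5 and Cebpa lay between the limits, with a median of -1.92. Over the array, 67.9% were below 0.5, with a median of -1.77. The medians were close, and with 7 genes the gap between the shares was not tested. The lowest were Adig (59.3-fold lower), Pparg and Fabp4 (4.26-fold lower), which encodes the fatty acid carrier of fat cells.

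Of 15 other secreted ligands and antagonists on the array, 0 were above 1.5, 7 below 0.5 and 8 between, and 4 of the latter (Bmp2, Bmp7, Wnt5b and Dkk1) were at 35 in both samples. Their median was -0.95 with these 4 taken as unchanged, which pulls it upward. Over the 84 genes, 67.9% were below 0.5 and 8.33% above 1.5, with a median of -1.77. Whether this list moved less than the array cannot be read from its median. Wnt3a was 72.0-fold lower, Shh 7.01-fold lower and Wnt10b at least 5.98-fold lower.

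The study lists Agt, Cfd and Lep as predicted human targets of Moringa miRNAs and does not list Adipoq, Retn and Angpt2 as such. It ran the prediction on the genes of the array and reported the targets among those changed in these same samples. Of the 3 listed, 2 were below 0.5 and Lep above 1.5, with a median of -1.08. Of the 3 others all were below 0.5, with a median of -1.96. With 3 genes a side and 2 wells at the ceiling, no difference between them can be read.

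**Figure D5:**
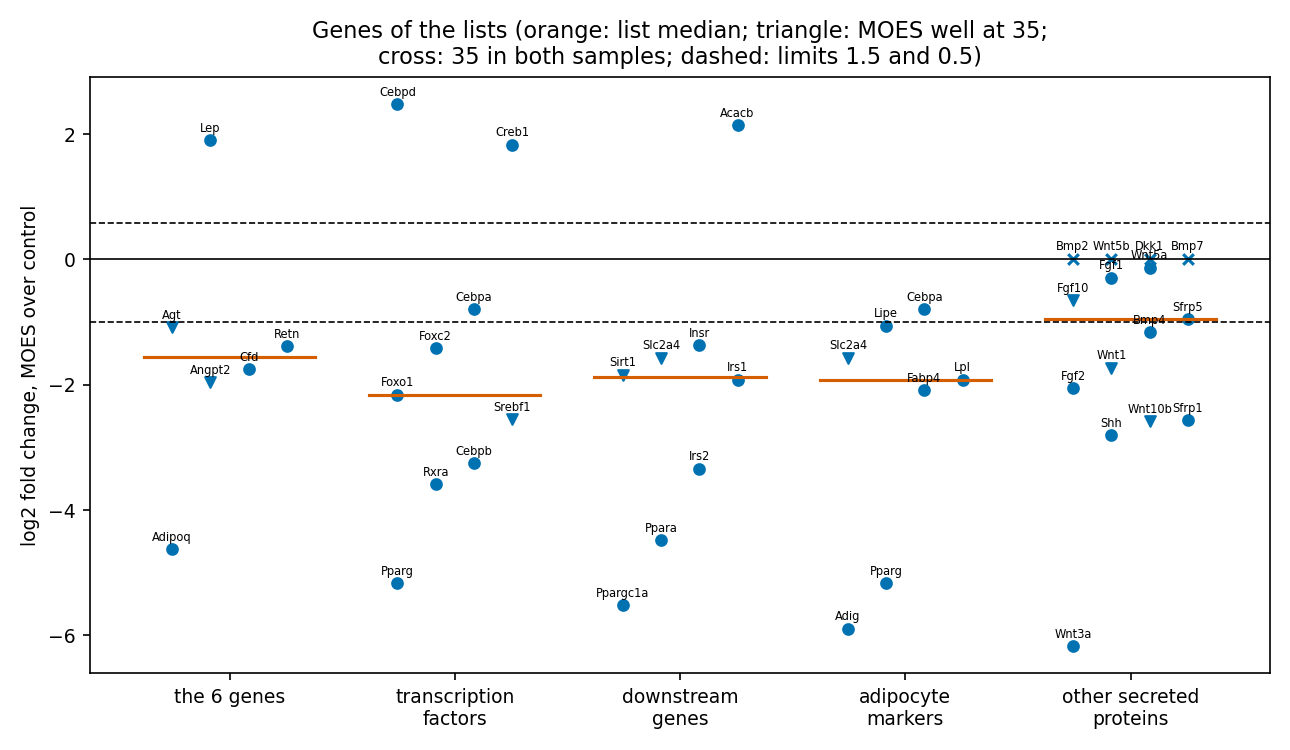
log2 fold change of MOES over control (vertical axis) for each gene of the 5 lists, with the list median in orange, triangles for MOES wells at 35 and crosses for genes at 35 in both samples. The medians run from -2.16 for the transcription factors to -0.95 for the other secreted proteins. The last takes 4 genes at 35 in both samples as unchanged. Lep, Cebpd, Creb1 and Acacb are the points above the upper dashed line.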

How the data were processed

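Total RNA of HepG2 cells was converted to cDNA and measured on a PCR array of 96 wells with SYBR Green, and the maker's web software computed the tables, per the labels. The authors deposited threshold cycles (a score of at most 35), delta Ct values (a log2 scale of reversed sign) and levels relative to the reference genes (a ratio). The header calls the Ct values averages without saying of how many wells, and the columns meant for SDs hold no numbers. Their fold change column was not used, and their other annotation was read for gene aliases only. The columns named for the control group and for group 1 were taken as the control and the MOES sample.

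A search through every subset of the reference genes for the offset between the deposited Ct and delta Ct gave the mean of B2m, Gusb and Hsp90ab1, with a largest gap of 0.0057 cycles. Each cycle by which the delta Ct of MOES exceeded that of the control halved the fold change. A list median took genes at 35 in both samples as unchanged. No test was run, for lack of replicates. Named genes were the 6 genes, the control wells, the 2 nearest genes to each by Euclidean distance (1 of them is not reported here), neighbours in control Ct, and from each list every gene above 1.5 and the 3 lowest. Cebpa and the 4 genes at 35 in both samples were named outside this rule, after their values were seen. The 6 genes and the lists were chosen with earlier results of these data known. The alternatives were 7 references, 2 treatments of late wells, the deposited delta Ct, 5 shifts or roundings of whole-cycle values and 3 pairs of limits. Promoter windows came from RefSeq, assembly GRCh38.p14. The code was tested on simulated data. Python 3.11.15, numpy 2.4.6, pandas 2.3.3 and matplotlib 3.10.9 were used.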

Additional observations from a re-analysis of the deposited data

Results flagged for a closer look

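The MGDC well, which enters no comparison of genes, gave a log2 fold change of 0.35 in the MOES sample relative to the reference genes (Ct 29.9 in control cells, 29.56 with MOES), less than the SD of 0.530 between single wells. Of the 6 genes, 3 were later than this well in control cells and 4 were with MOES, Lep among them in both.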

How the results depend on the processing

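No paired analysis was possible because there was a single sample in each group. The count of genes above 1.5 was 1 under 16 of 18 alternatives. It was 6 with Gapdh alone as reference and 0 with Ct above 32 set to 32. The count below 0.5, which was 5, was 0 with Gapdh alone, 2 with Actb alone, and 1 with the mean of all 5 reference genes, with the median Ct of the array as reference and with the MOES gene wells lowered by 1 cycle. It was 3 with Ct above 32 set to 32, with the genes at 35 left out, with the MOES gene wells lowered by 0.5 cycle and with the control rounded to whole cycles. The median log2 fold change of the 6 genes, -1.57, was 4.97 with Gapdh alone, -0.63 with Actb alone, -0.071 with all 5 reference genes and -0.065 with the array's median Ct. It was -0.69 with Ct above 32 set to 32, and -2.17 and -0.57 with the MOES gene wells raised and lowered by 1 cycle. With Gapdh alone the sign turned for Adipoq (1.91), Cfd (4.78), Retn (5.15), Agt (5.45) and Angpt2 (4.57). Retn and Agt also turned with all 5 reference genes (0.11 and 0.41) and with the array's median Ct (0.12 and 0.42), while Agt and Angpt2 stood at 0.01 each with Ct above 32 set to 32. The references and the shifts add a constant by construction, and the setting at 32 puts both wells of Lep, Agt and Angpt2 at the same Ct, so that their 0.01 is the difference between the reference means and gives no direction. Lep was above 0 under the other 14 alternatives that give it a value, from 0.90 to 8.43. These lower its log2 value by at most 1 cycle and could not have turned its sign, so this count is no check of its direction. The ceiling limits Agt and Angpt2, and the whole cycles limit all 6 genes.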
